A study of Mus musculus with 41 samples.

Results

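The regions described here are sites in mouse epidermal stem cells at which SOX9 stayed throughout a time course of induction and at which the histone methyltransferases MLL3/4 were found beforehand. They were chosen by measured SOX9 and D0 MLL3/4 peaks, which are therefore given as a description and without a test. SOX9 peaks of weeks (W) 1, 2, 6 and 12 were merged where they overlapped by at least 1 bp, which gave 28549 regions, of which 5110 held a SOX9 peak in all 4 lists. Of these, 579 also held a SOX9 peak at D0, before induction, and were left out. The 2607 regions chosen, 9.13% of all merged regions and 51.02% of those with SOX9 in all 4 lists, held a D0 MLL3/4 peak and no D0 SOX9 peak. They are called persistent regions on prior MLL3/4 below. They were set beside 1924 persistent regions without D0 MLL3/4, and beside 3943 regions on D0 MLL3/4 with SOX9 at W1, W2 and W6 but no longer at W12 (not persistent).

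SOX9 is a transcription factor of hair follicle stem cells (HFSCs) that binds the minor groove of DNA through its high-mobility-group (HMG) domain, and epidermal stem cells (EpdSCs) normally lack it. MLL3 and MLL4 (products of Kmt2c and Kmt2d) are histone methyltransferases that place H3K4me1, the mark of primed and active enhancers. The regions asked about are thus places that carried an enhancer-associated enzyme in EpdSCs before SOX9 was made and that SOX9 then kept occupying.

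Chromatin occupancy was measured with CUT&RUN (CNR), in which an antibody-tethered nuclease releases the DNA around a protein for sequencing. EpdSCs came from the back skin of male CD1 mice of genotype K14rtTA; TRE-myc-Sox9, in which a keratin 14 promoter drives the doxycycline (DOX)-dependent activator, so that MYC-tagged SOX9 is made in basal epithelium once DOX is given, and D0 cells carried the same transgenes without DOX. Cells negative for CD31, CD45, CD117, CD140a and CD34 and high for CD49f and Ly6A were sorted at postnatal day 21 (D0), 28 (W1), 35 (W2) and 63 (W6), and from skin grafted onto immunocompromised mice at W12. Age and grafting moved with the weeks of DOX and cannot be told apart from them. MLL3/4 was mapped at D0, W1 and W2. Cultured keratinocytes were mapped with a MYC-tag antibody and with the MLL3/4 antibody, in cells without DOX (genotype K14rtTA; TRE-myc-Sox9) and in cells given 1 µg/ml DOX to make WT-SOX9 (same genotype), a form that lacks the transactivation domain (dTA-SOX9, genotype K14rtTA; TRE-myc-Sox9noTA) or a form that lacks the HMG domain and so cannot bind DNA (dHMG-SOX9, K14rtTA; TRE-myc-Sox9noHMG). Per the study's methods, the WT form as well as both altered forms were brought in by lentivirus, with puromycin selection.

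Each group had 2 samples that were pooled into 1 peak list before deposit, so no spread between samples can be given and no test between groups was possible. Ranges after shares are 95% Wilson intervals and those after differences of shares 95% Newcombe intervals, which cover counting error over regions only. SOX9 lists held 792 peaks at D0 and from 9745 (W12) to 20579 (W6) later. The weakest listed SOX9 peak stood on 59 fragments at D0 and on 24 (W2) to 43 (W6) later, so that D0, where the absence of SOX9 was part of the rule, was the most deeply sequenced. The pooled MYC-tag lists were shallower, at 8 to 11 fragments, and the MYC-tag list of replicate 1 went down to 2. MLL3/4 lists held 37072 peaks at D0, 31539 at W1 and 29281 at W2, with unscaled coverage and unknown depth. As a check of the sorted cells, D0 MLL3/4 peaks lay within 1 kb of the gene start for 3 of 7 EpdSC genes (Krt5, Krt14 and Col17a1) and for 0 of 10 genes of endothelium, immune cells, melanocytes and mast cells, fibroblasts, bulge and differentiated epidermis. Within 10 kb of the genes there were 57 D0 peaks over the former and 22 over the latter, 13 of them at the endothelial gene Pecam1 and 4 at the T cell gene Cd3e. The part of other cells in the D0 list was not tested.

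To show what such sites look like, the DNA within 50 bp of the strongest SOX9 maximum is given for 6 regions with a high SOX9 rank in their weakest week. Sequences are from GRCm38 (mm10), plus strand, and are named by the nearest protein-coding gene. Capitals mark SOX words and AP1 words on either strand. The SOX words searched were CCATTGT as well as CCTTTGT, along with GCATTGT as well as GCTTTGT, and the AP1 words TGACTCA as well as TGAGTCA. These are sequences that SOX and JUN/FOS factors are known to recognize.
Reep3 (chr10:67061531-67061631): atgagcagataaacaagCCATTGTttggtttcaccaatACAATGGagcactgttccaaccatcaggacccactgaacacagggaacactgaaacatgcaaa
Tcim (chr8:24481412-24481512): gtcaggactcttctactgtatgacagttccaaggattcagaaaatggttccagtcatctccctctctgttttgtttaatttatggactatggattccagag
Pkd1l1 (chr11:8830880-8830980): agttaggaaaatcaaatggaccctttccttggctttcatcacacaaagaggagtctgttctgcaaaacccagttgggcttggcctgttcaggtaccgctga
Dlgap1 (chr17:70755659-70755759): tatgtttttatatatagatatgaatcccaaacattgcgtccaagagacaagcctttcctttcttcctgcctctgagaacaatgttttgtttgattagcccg
Rassf10 (chr7:113048556-113048656): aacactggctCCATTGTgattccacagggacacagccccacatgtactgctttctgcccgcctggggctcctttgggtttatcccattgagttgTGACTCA
Fam84a (chr12:14301800-14301900): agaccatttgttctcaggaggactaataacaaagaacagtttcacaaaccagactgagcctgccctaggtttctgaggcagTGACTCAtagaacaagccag

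The window near Reep3 held 2 SOX words, that near Rassf10 1 SOX and 1 AP1 word, and that near Fam84a 1 AP1 word. The windows near Tcim, Pkd1l1 and Dlgap1 held none of these words, although the shorter SOX word (CATTGT as well as CTTTGT) occurred in the latter pair of them. A match says only that the letters are present.

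The 6 regions ranked highest in their weakest week among those outside chromosome 18. The first of them lay in an intron of Reep3, a gene of the endoplasmic reticulum membrane, at chr10:67060531-67062286. Its maximum SOX9 signal, in RPKM (fragments normalised for length and sequencing depth), was 16826 in W1 cells, 17342 in W2 cells, 15070 in W6 cells and 10249 in W12 cells, and its total signal ranked in the top percentile of every list. MLL3/4 rank there, as a percentile of the peaks in that list by total signal, was 8.35 at D0, 99.5 at W1 and 97.5 at W2. The region thus met the rule through one of the weakest D0 MLL3/4 peaks and then ranked with the strongest.

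The second region, intergenic at chr8:24480566-24482186 and 42478 bp from Tcim, a regulator of WNT signalling, behaved alike. Its SOX9 maximum over W1, W2, W6 and W12 was 13138, 20627, 18050 and 8640 RPKM, and its MLL3/4 rank was 9.13 at D0, 99.0 at W1 and 99.4 at W2. The third, in an intron of the polycystin-family gene Pkd1l1 (chr11:8830391-8831503), had SOX9 maxima of 12965, 16349, 14566 and 6986 RPKM and MLL3/4 ranks of 55.4, 98.2 and 97.4. In culture, all 3 regions held a MYC-tag peak with WT-SOX9 and none without DOX, with dTA-SOX9 or with dHMG-SOX9.

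The other 3 regions lay within 1 kb of an annotated transcript start inside Dlgap1, which encodes a synaptic scaffold (chr17:70754941-70756251), and between genes near Rassf10 (chr7:113048081-113049124) and Fam84a (chr12:14300996-14303015). At W1, W2, W6 and W12 the SOX9 maximum was 16077, 18259, 17295 and 10754 RPKM at the Dlgap1 region. It was 12331, 17648, 14524 and 11536 RPKM near Rassf10 and 9393, 8862, 8983 and 5975 RPKM near Fam84a. The highest value came from W2 at Dlgap1 and Rassf10 and from W1 at Fam84a, and W12 was lowest at each. MLL3/4 rank at D0, W1 and W2 was 86.1, 93.7 and 97.6 at Dlgap1, 42.8, 90.2 and 91.9 near Rassf10, and 93.3, 99.9 and 99.9 near Fam84a. These 3 regions held MYC-tag peaks with both WT-SOX9 and dTA-SOX9 and none without DOX or with dHMG-SOX9, and they were also the 3 highest-ranked with that pattern among the regions outside chromosome 18.

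Over the 2607 regions, SOX9 was strongest at W2 and W6 and weakest at W12. The median of the maximum was 3573 RPKM in W1 cells, 4507 in W2 cells, 4114 in W6 cells and 2436 in W12 cells, and the lowest and highest regions were at 1844 and 18728, 1834 and 24829, 1805 and 21324, and 1838 and 13006 RPKM in that order. The lists hold maxima above 1800 RPKM only. Measured in fragments, the median peak stood on 62, 59, 98 and 53 at its maximum. The strongest peak of a region came from W2 in 1384 regions, W6 in 730, W1 in 452 and W12 in 41. In the persistent regions without D0 MLL3/4 the medians were 4034, 4889, 5205 and 3355 RPKM, and in the regions not persistent 2593, 3438 and 2645 RPKM at W1, W2 and W6. By percentile rank of total signal the order was turned at W1 and W2, with medians of 73.1, 78.0, 79.9 and 56.6 on prior MLL3/4 and 65.8, 72.5, 82.3 and 66.6 without it over the 4 weeks.

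**Figure D1:**
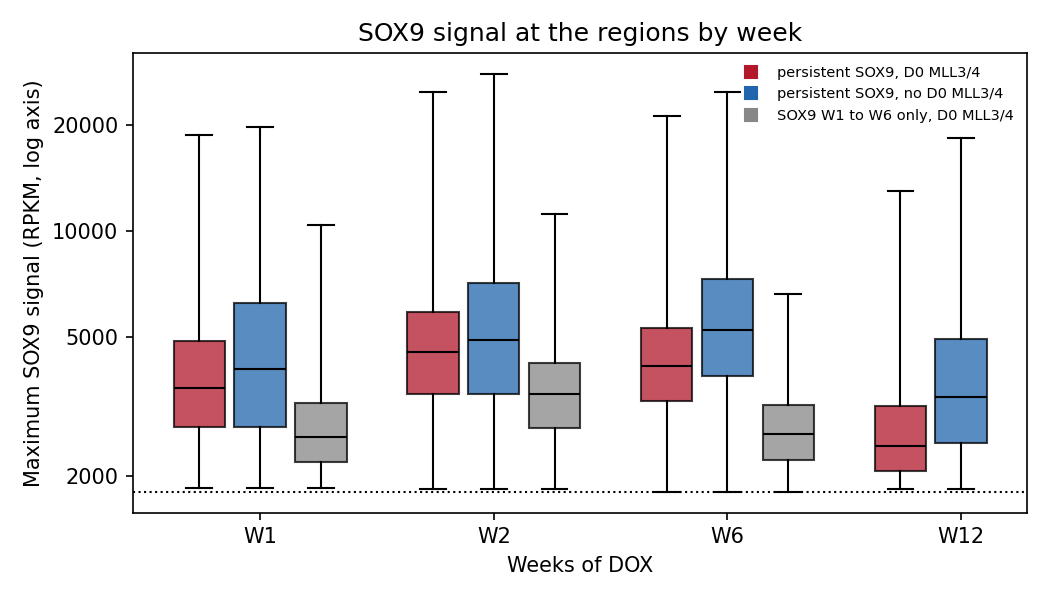
Maximum SOX9 signal (RPKM, log axis) of the regions at W1, W2, W6 and W12 of DOX. Boxes span the quartiles with the median as a line, whiskers reach the lowest and highest region, and the dotted line is the 1800 RPKM limit of the lists. The 2607 persistent regions on prior MLL3/4 (red) had a lower median maximum than those without it (blue) at each week and a higher one than the regions without a W12 peak (grey).

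SOX9 peaks of the 4 weeks lay close together, as the merging favours. A base covered by peaks of all 4 lists existed in 2593 regions (99.5%), and the maxima of W1 and W12 lay a median of 15 bp from each other (quartiles 2 and 60 bp). The spread from the first to the last of all 4 maxima had a median of 55 bp and was within 50 bp in 47.1% of regions. The distance from the strongest SOX9 maximum to the MLL3/4 maximum had a median of 51 bp at D0, 48 bp at W1 and 51 bp at W2, and 49.7% of the D0 maxima lay within 50 bp. In the regions not persistent it was 52, 56 and 60 bp. Median region width was 911 bp, against 793 bp without D0 MLL3/4, 812 bp for regions not persistent and 624 bp over all merged regions.

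At the edge of the rule, the member with the smallest overlap with a D0 MLL3/4 peak shared 15 bp with it (chr4:95625044-95626340, near Fggy), while the nearest region outside lay 60 bp from one (chr2:173266228-173266989, near Pmepa1). The median overlap was 488 bp, and 1 member had under 50 bp. Of the 1924 regions without D0 MLL3/4, 73 lay within 500 bp of a D0 peak. On the SOX9 side, 562 members (21.6%) had a weakest week under 2000 RPKM, so that many were close to the limit.

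The next question was whether MLL3/4 stayed at these regions once SOX9 arrived. It did at nearly all of them. An MLL3/4 peak was present at W1 in 2512 of 2607 regions (96.4%, 95% interval 95.6 to 97.0) and at W2 in 2496 (95.7%, 94.9 to 96.5), beside 59.8% and 60.1% of all merged regions and 9.03% and 9.47% when the same regions were moved by 10 kb. Both weeks were positive in 2428 regions (93.1%), W1 alone in 84, W2 alone in 68 and neither in 27.

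MLL3/4 was also found at W1 in 74.9% of the persistent regions without D0 MLL3/4, which was 21.4 points lower (19.4 to 23.5), and in 91.0% of the regions not persistent, 5.31 points lower (4.15 to 6.45). At W2 the differences were 23.6 points (21.5 to 25.8) and 4.24 points (3.05 to 5.39). The difference from the regions not persistent went with SOX9 strength. Within quartiles of the W1 SOX9 maximum taken over both sets it was 5.65 points at W1 in the lowest quartile (1.45 to 9.10), and in the other quartiles its interval included 0, while at W2 it included 0 in all 4.

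Seen from the D0 MLL3/4 list, the 3065 D0 peaks on these regions, 8.27% of the list, were found again at W1 in 93.3% (92.3 to 94.1) and at W2 in 93.2% of cases. The 19989 D0 peaks on no SOX9 peak of any week were found again in 27.7% (27.1 to 28.3) and 26.3%. The latter peaks were narrower (median 300 bp against 443 bp) and of lower rank, so the comparison was repeated within quintiles of the D0 list. In the weakest quintile 81.2% (75.9 to 85.6) of peaks on the regions and 11.8% (11.0 to 12.6) of peaks without SOX9 were found again at W1, and in the strongest 99.2% and 69.5% (67.2 to 71.7). Peaks on the regions not persistent lay between, at 67.3% (61.8 to 72.4) in the weakest quintile and 98.0% in the strongest.

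**Figure D2:**
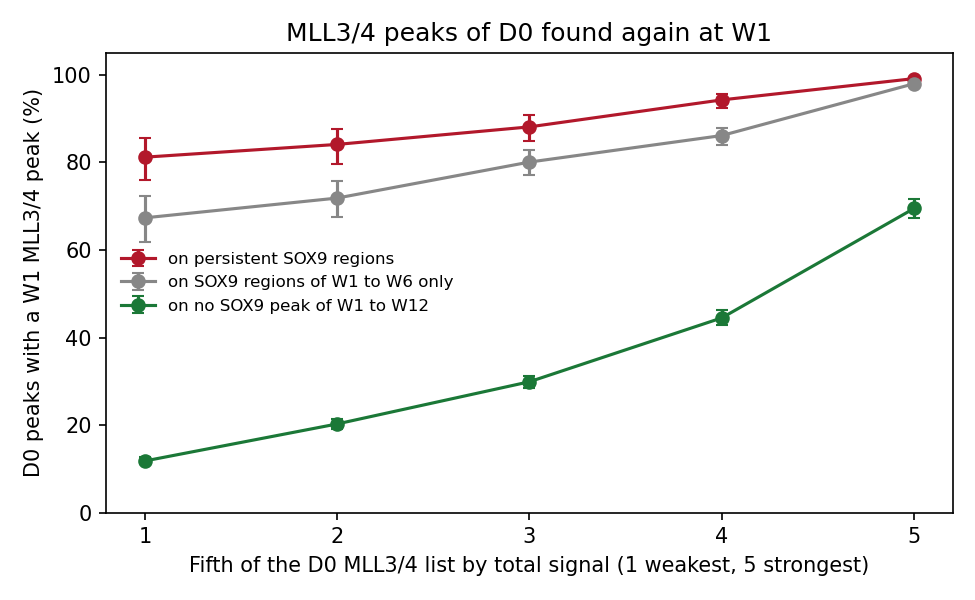
Share of D0 MLL3/4 peaks that overlapped a W1 MLL3/4 peak (y axis, %), by quintile of the D0 list by total signal (x axis), with 95% Wilson intervals as bars. Peaks on the persistent regions (red) ran from 81.2% to 99.2%, peaks on regions without a W12 SOX9 peak (grey) from 67.3% to 98.0% and peaks on no SOX9 peak (green) from 11.8% to 69.5%.

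Where MLL3/4 was kept, its place in the list could be compared with that at D0, with the limits that the D0 peak was part of the rule and that the lists differ in length. Over the 2512 regions with a peak at both D0 and W1, the median rank was 79.1 at D0 and 85.3 at W1, and over the 2496 with one at D0 and W2 it was 79.2 and 83.6. Of the former, 1465 (58.3%) had a higher percentile at W1 than at D0, with a median change of 2.61 percentile points (quartiles -5.90 and 19.6). Counted as a position from the top of each list, which does not depend on how many weak peaks a list holds, 1628 (64.8%) stood nearer to the top, beside 48.8% of the regions not persistent. By percentile, 41.3% of the regions not persistent ranked higher and the median change was -2.38 points. Ranks at an end of a list can move only one way, so both sets were also compared at like D0 rank. In the weakest quintile of D0, the median W1 rank was 76.4 for 146 persistent regions and 64.7 for 129 regions not persistent, with 23.3% and 4.65% in the top 10%. In the strongest quintile it was 90.6 and 85.9, with 52.6% and 38.7% in the top 10%. The Reep3 and Tcim regions above belong to the first of these groups.

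The 3 regions with the most D0 MLL3/4 signal had ranks of 99.96, 99.92 and 99.92 in the D0 list. They lay at chr13:114638554-114640767, in an intron of a gene that is not protein-coding and 179225 bp from the molybdenum cofactor gene Mocs2, at chr3:57976302-57977289, 128640 bp from the profilin gene Pfn2, and at chr3:102038366-102040042, 23202 bp from the neuronal transcription factor gene Nhlh2. Their ranks at W1 were 99.8, 99.8 and 99.4. SOX9 maxima there were 4322, 4431, 5289 and 3401 RPKM over the 4 weeks near Mocs2, 4322, 4202, 3736 and 2666 RPKM near Pfn2 and 2939, 4278, 3274 and 2298 RPKM near Nhlh2. By total signal the SOX9 rank in the weakest week was 86.9 near Mocs2, 84.9 near Pfn2 and 36.9 near Nhlh2. In culture none of the 3 held a MYC-tag peak of WT-SOX9 or without DOX and all held a dTA-SOX9 one, and the region near Mocs2 also held a dHMG-SOX9 one.

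The 27 regions that had lost MLL3/4 at both W1 and W2 were narrower (median 584 bp), and 15 of them lay within 1 kb of a transcript start (55.6%, 37.3 to 72.4), against 21.9% (20.3 to 23.6) of those with MLL3/4 at both weeks. The 3 with the most D0 signal were chr3:95928823-95929503, 73 bp from Anp32e, a histone H2A.Z chaperone, chr14:61680659-61681371, at the start of another transcript near Kcnrg, and chr2:11530176-11531064, in an exon of the glycolytic regulator Pfkfb3. Their D0 MLL3/4 ranks were 87.3, 72.5 and 69.0. SOX9 at W12 was 2022, 2666 and 2482 RPKM there. None of these 3 held a MYC-tag peak of WT-SOX9 or dTA-SOX9 in culture, unlike others of the 27, of which 10 held a WT-SOX9 peak (37.0%, 21.5 to 55.8) and 7 a dTA-SOX9 peak (25.9%, 13.2 to 44.7). The Anp32e region held a MYC-tag peak without DOX. Regions with MLL3/4 at both weeks held WT-SOX9 and dTA-SOX9 peaks in 24.8% (23.1 to 26.5) and 43.5% (41.5 to 45.4).

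Cultured keratinocytes gave a second view, with readouts that the choice of regions did not use. Here the regions with prior MLL3/4 parted from those without it. A MYC-tag peak of WT-SOX9 lay on 629 of 2607 regions (24.1%, 22.5 to 25.8; 12.2% of all merged regions), and one of dTA-SOX9 on 1106 (42.4%, 40.5 to 44.3; 17.5% of all). In the persistent regions without D0 MLL3/4 the order was turned, with WT-SOX9 on 45.6% (43.4 to 47.8) and dTA-SOX9 on 19.9% (18.2 to 21.7). The difference between regions with and without prior MLL3/4 was -21.5 points for WT-SOX9 (-24.2 to -18.7) and 22.5 points for dTA-SOX9 (19.9 to 25.1). These sets differed in SOX9 maximum and were not matched for it. Among regions above 3600 RPKM in each week, the difference was -7.37 points for WT-SOX9 (-13.6 to -1.19) and 33.8 points for dTA-SOX9 (27.6 to 39.7). Within the regions on prior MLL3/4, dTA-SOX9 exceeded WT-SOX9 by 18.3 points (16.0 to 20.6, over the same regions), and in those without it the difference was -25.7 points (-28.4 to -23.0).

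The dTA-SOX9 list was longer, with 11341 peaks against 6671. When both were cut to 6671 peaks by total signal, a step added after the values were seen, dTA-SOX9 lay on 31.4% and WT-SOX9 on 24.1% of the regions, a difference of 7.29 points (5.07 to 9.51). With the lists at full length, the excess was smaller at stronger SOX9 sites. It was not recomputed with equal lists by SOX9 strength, position or word. By quartile of the W1 SOX9 maximum it was 29.9, 29.8, 23.9 and, in the highest, 7.11 points (3.52 to 10.7). In the 369 regions above 3600 RPKM in each week, WT-SOX9 lay on 61.0% and dTA-SOX9 on 57.7% (difference -3.25 points, -9.71 to 3.20).

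MYC-tag peaks in cells without DOX, in which any leak of the transgene was not measured, lay on 10.9% of the regions (9.72 to 12.1; 4.3% of all merged regions). In the list of replicate 1 alone, which has no 1800 RPKM limit, they lay on 21.7%, and with that limit applied on 11.8% (10.6 to 13.1). With dHMG-SOX9, a tagged protein without the HMG domain, peaks lay on 13.5% (12.2 to 14.9; 5.42% of all), while the persistent regions without D0 MLL3/4 had 1.46% without DOX and 1.51% with dHMG-SOX9. Within 1 kb of a transcript start, WT-SOX9, dTA-SOX9, no-DOX and dHMG-SOX9 peaks lay on 29.0%, 29.8%, 26.6% and 29.2% of 610 regions, with intervals that overlapped. At the 1997 distal regions, farther than 1 kb from any start, they lay on 22.6% (20.9 to 24.5), 46.3% (44.1 to 48.5), 6.06% (5.10 to 7.19) and 8.71% (7.55 to 10.03). With the lists at full length, the excess of dTA-SOX9 over WT-SOX9 was 0.820 points at promoters (-3.83 to 5.46) and 23.6 points at distal regions (21.1 to 26.2). Without regions that held a no-DOX peak, 513 regions (19.7%) remained on WT-SOX9 and 956 (36.7%) on dTA-SOX9.

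Compared with the regions not persistent, the persistent regions on prior MLL3/4 held more peaks of both proteins. WT-SOX9 was found on 6.97% of the regions not persistent, 17.2 points less (15.3 to 18.99), and dTA-SOX9 on 13.4%, 29.1 points less (26.9 to 31.2). Both differences had intervals above 0 within each quartile of the W1 SOX9 maximum. They were 3.78, 4.70, 8.07 and 28.2 points for WT-SOX9 from the lowest to the highest quartile, and 27.7, 28.4, 24.3 and 29.6 points for dTA-SOX9. In the regions on prior MLL3/4 themselves, WT-SOX9 lay on 28 of 311 regions in the lowest quartile and on 11.2%, 16.9% and 37.9% in the next 3, and dTA-SOX9 on 38.9%, 41.0%, 40.7% and 45.00%.

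**Figure D3:**
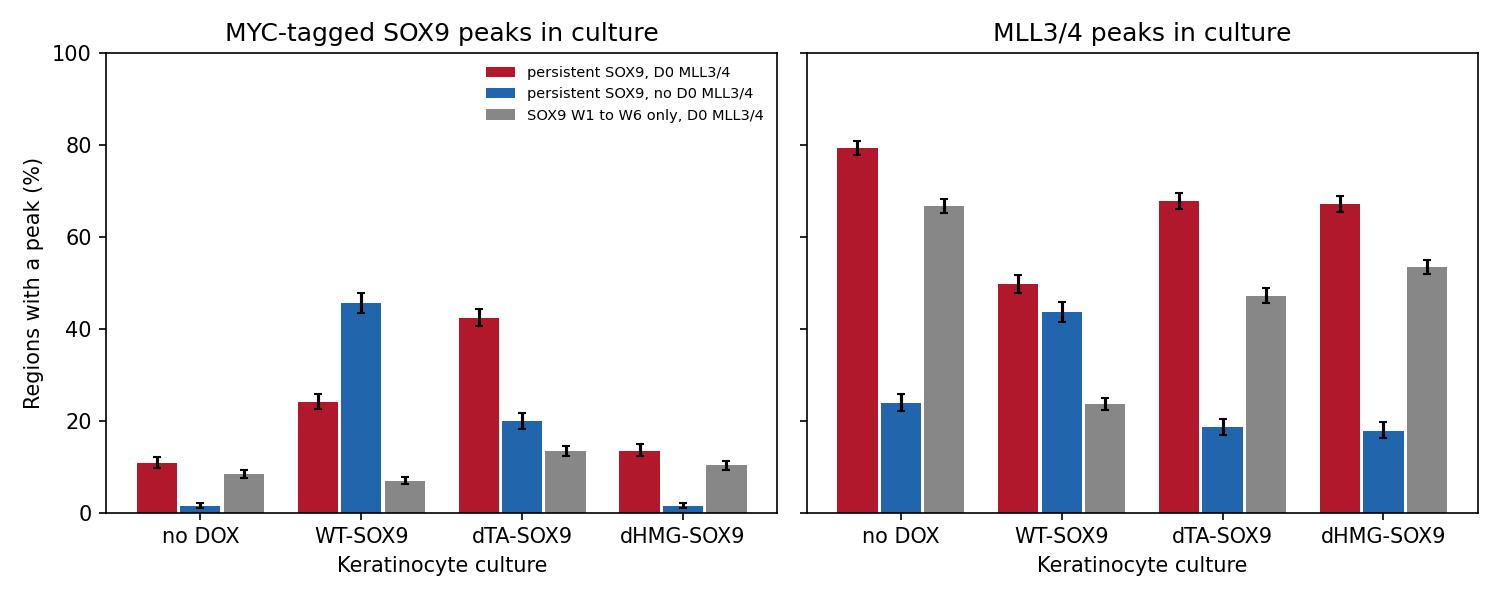
Share of regions (y axis, %) with a MYC-tag peak (left) or an MLL3/4 peak (right) in cultured keratinocytes without DOX or making WT-SOX9, dTA-SOX9 or dHMG-SOX9, with 95% Wilson intervals as bars. On the left, red (prior MLL3/4) exceeds blue (no prior MLL3/4) for dTA-SOX9, 42.4% against 19.9%, and the reverse holds for WT-SOX9, 24.1% against 45.6%.

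In cultured cells without DOX an MLL3/4 peak lay on 79.4% of the regions (77.8 to 80.9; 44.7% of all merged regions), against 23.9% (22.1 to 25.9) of the persistent regions without D0 MLL3/4 and 66.7% (65.2 to 68.2) of those not persistent. With WT-SOX9 the share on the regions was 49.8% (47.9 to 51.7; 21% of all), while it was 43.6% (41.4 to 45.8) without D0 MLL3/4 and 23.6% (22.3 to 24.99) in the regions not persistent. On the regions it was 67.9% with dTA-SOX9 (66.0 to 69.6; 33.5% of all) and 67.2% with dHMG-SOX9 (65.3 to 68.9; 34.4% of all). The lists shortened in parallel, from 33975 peaks without DOX to 10543, 25948 and 23301, with depths unknown.

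Of the 2070 regions with an MLL3/4 peak without DOX, 56.3% (54.1 to 58.4) still had one with WT-SOX9, beside 18.03% of all peaks in the no-DOX list, 33.2% (31.4 to 34.98) in the regions not persistent and 63.9% (59.4 to 68.2) of the 460 such regions without D0 MLL3/4. Whole-list shares count single peaks, of median width 296 bp against 911 bp for the regions, and were not matched for peak strength. With dTA-SOX9 and dHMG-SOX9 the shares that had a peak were 82.2% and 82.3%, beside 55.7% and 56.5% of the whole list and 65.9% and 64.1% in the persistent regions without D0 MLL3/4. Cells without DOX were of the WT-SOX9 genotype only. For dTA-SOX9 and dHMG-SOX9, genotype and DOX therefore cannot be told apart, here or in the peaks gained. Of the 537 regions without a no-DOX peak, 24.8% (21.3 to 28.6) had one with WT-SOX9, 12.5% (9.95 to 15.5) with dTA-SOX9 and 8.94% (6.81 to 11.6) with dHMG-SOX9. In the persistent regions without D0 MLL3/4 the gain with WT-SOX9 was 37.2% (34.8 to 39.7). Where WT-SOX9 itself was mapped, 83.9% (80.9 to 86.6) of the regions had MLL3/4 with WT-SOX9, and where it was not, 38.9% (36.8 to 41.1). The other sets were split alike, at 72.1% and 19.8% without D0 MLL3/4 and 56.4% and 21.2% in the regions not persistent.

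With the lists at full length, the regions on which dTA-SOX9 but not WT-SOX9 was found were 743, those with both 363, those with WT-SOX9 alone 266 and those with neither 1235. dTA-SOX9 alone lay on 28.5% of the regions, 8.63% of the persistent regions without D0 MLL3/4 and 11.8% of those not persistent. In that order, WT-SOX9 alone lay on 10.2%, 34.3% and 5.45%, both on 13.9%, 11.3% and 1.52%, and neither on 47.4%, 45.8% and 81.2%. An MLL3/4 peak without DOX lay on 95.7% (94.0 to 96.9) of the dTA-SOX9-only regions and on 68.4% (62.6 to 73.7) of the WT-SOX9-only regions. After DOX in WT-SOX9 cells, MLL3/4 was on 57.3% (53.8 to 60.8) of the former and 74.4% (68.9 to 79.3) of the latter, and on 90.9% (87.5 to 93.5) of the regions with both. The dTA-SOX9-only regions were seldom promoters (14.4%, 12.1 to 17.1), and 38.3% (32.7 to 44.3) of the WT-SOX9-only regions were. An AP1 word, described next, lay in 35.1% (31.8 to 38.6) of the dTA-SOX9-only and 8.27% (5.53 to 12.2) of the WT-SOX9-only regions.

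The DNA at the SOX9 maximum differed too. A SOX word lay within 50 bp of the maximum in 443 of 2607 regions (17.0%, 15.6 to 18.5), close to the share over all merged regions (17.4%). It was 2.75 times the 6.18% in windows 1 kb away. The persistent regions without D0 MLL3/4 had 40.3% (38.2 to 42.5), 23.3 points more (members minus these, -23.3, -26.0 to -20.7), and the regions not persistent 9.51%, 7.48 points less (5.79 to 9.21). The latter difference had intervals that included 0 in each quartile of the W1 SOX9 maximum. Of the regions on prior MLL3/4, 29.6% held the shorter SOX word, 4.14% a longer one and 25.9% a SOX word within 100 bp of the maximum. An inverted pair of SOX words, either ACAAAG or else ACAATG followed after 3 to 5 bp by either CATTGT or else CTTTGT, was present in 13 regions (0.499%, 0.292 to 0.851), against 1.12% of all merged regions and 6.13% (5.15 to 7.30) of the persistent regions without D0 MLL3/4.

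SOX words were the more common kind with the shorter SOX word (29.6%) and, above 3600 RPKM in each week, with the main words (29.8% against 24.1%). With the main words over all the regions, AP1 words were the more common kind. They lay in 681 regions (26.1%, 24.5 to 27.8; 20% of all merged regions), 12.1 times the 2.17% in windows 1 kb away. The persistent regions without D0 MLL3/4 had 16.8%, 9.28 points less (6.89 to 11.6), and the regions not persistent 14.6%, 11.6 points less (9.56 to 13.6). Within quartiles of the W1 SOX9 maximum the difference from the latter was 17.1, 20.1, 14.3 and 8.16 points, each with an interval above 0. AP1 words lay a median of 24 bp and SOX words 34.5 bp from the maximum, among the 1003 and 674 regions that had one within 100 bp. In the 232 regions with both within 100 bp, the nearest pair lay a median of 46 bp apart.

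KLF words (CCNCNCCC), the recognition sequence of SP and KLF factors, were found in 11.6% of the regions (10.4 to 12.9; 12.2% of all), between the 6.08% without D0 MLL3/4 and the 18.7% of regions not persistent, and in 21.6% of promoter against 8.56% of distal regions. Words of RUNX factors (AACCACA), those of TEAD factors (ACATTCC) and those of GATA factors (AGATAAC as well as AGATAAG) lay in 2.65%, 1.80% and 1.956% of the regions, beside 2.57%, 2.14% and 2.51% of all merged regions and 2.07%, 1.28% and 2.32% of windows 1 kb away. For RUNX the regions not persistent had 1.55%, 1.10 points less (0.398 to 1.87), which was also below the 2.45% in their own windows 1 kb away. The persistent regions without D0 MLL3/4 had 3.17%, with an interval of the difference that included 0. GRHL words (AACCGGTT as well as AACTGGTT) lay in 11 regions, and full TP63 and CTCF words in 1 region each, beside 0.546%, 0.0455% and 0.186% of all.

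**Figure D4:**
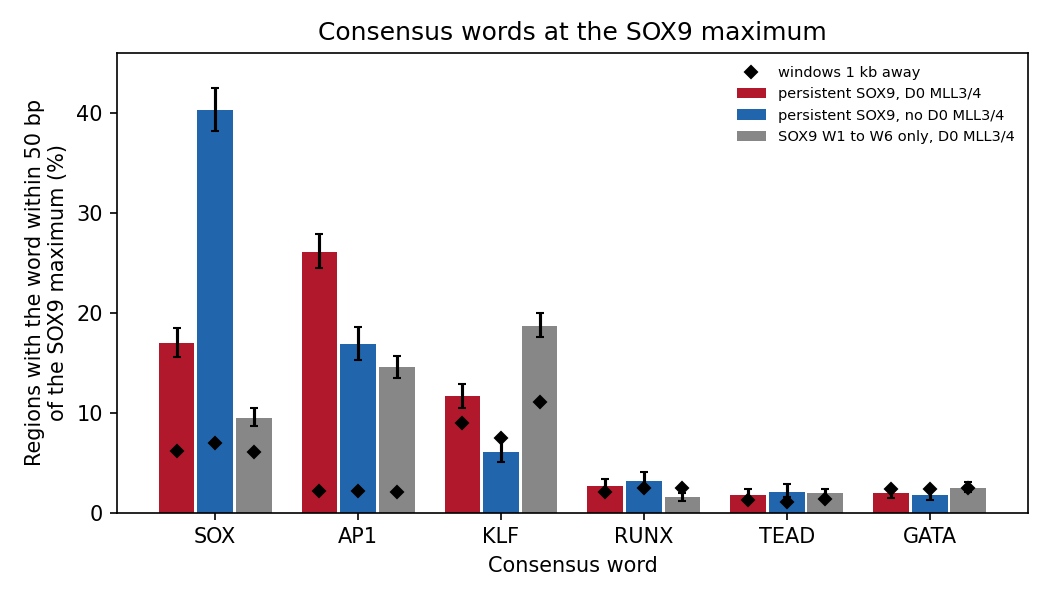
Share of regions (y axis, %) with a consensus word within 50 bp of the SOX9 maximum, with 95% Wilson intervals as bars and the mean of windows 1 kb to either side as black diamonds. Red bars (persistent, prior MLL3/4) are lower than blue bars (persistent, no prior MLL3/4) for SOX, 17.0% against 40.3%, and higher for AP1, 26.1% against 16.8%.

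The words split the regions in their other readouts. A SOX word alone was present in 349 regions, an AP1 word alone in 587, both in 94 and neither in 1577 (60.5%). In culture, WT-SOX9 lay on 35.5% (30.7 to 40.7) of the SOX-only and 13.1% (10.6 to 16.1) of the AP1-only regions, a difference of 22.4 points (16.7 to 28.1). dTA-SOX9 lay on 43.3% (38.2 to 48.5) and 49.1% (45.0 to 53.1), a difference of -5.80 points (-12.3 to 0.813). Peaks without DOX lay on 6.30% and 6.81%. In the larger class with neither word, WT-SOX9 lay on 25.8% (23.7 to 28.03), dTA-SOX9 on 39.2% (36.8 to 41.6) and peaks without DOX on 13.8% (12.1 to 15.5). With the lists at full length, the excess of dTA-SOX9 over WT-SOX9 was 7.74 points (1.26 to 14.2) in SOX-only and 35.9 points (31.7 to 40.2) in AP1-only regions. It was not recomputed by word with equal lists, which took the excess over all the regions from 18.3 to 7.29 points.

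In vivo, SOX-only regions had median SOX9 ranks of 87.7, 87.0, 88.3 and 67.2 at W1, W2, W6 and W12, and AP1-only regions 62.1, 66.8, 76.8 and 52.9, so that the gap was widest at W1. D0 MLL3/4 ranks of the SOX-only and AP1-only regions were close, with medians of 75.4 and 76.7. Among regions that had a W1 peak, MLL3/4 had a higher percentile at W1 than at D0 in 254 of 342 SOX-only regions (74.3%), 328 of 560 AP1-only regions (58.6%) and 53.9% of 1520 with neither word. By position from the top of the lists the shares were 77.8%, 66.1% and 60.9%. The same libraries and regions stand behind these ranks, which are a description.

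**Figure D5:**
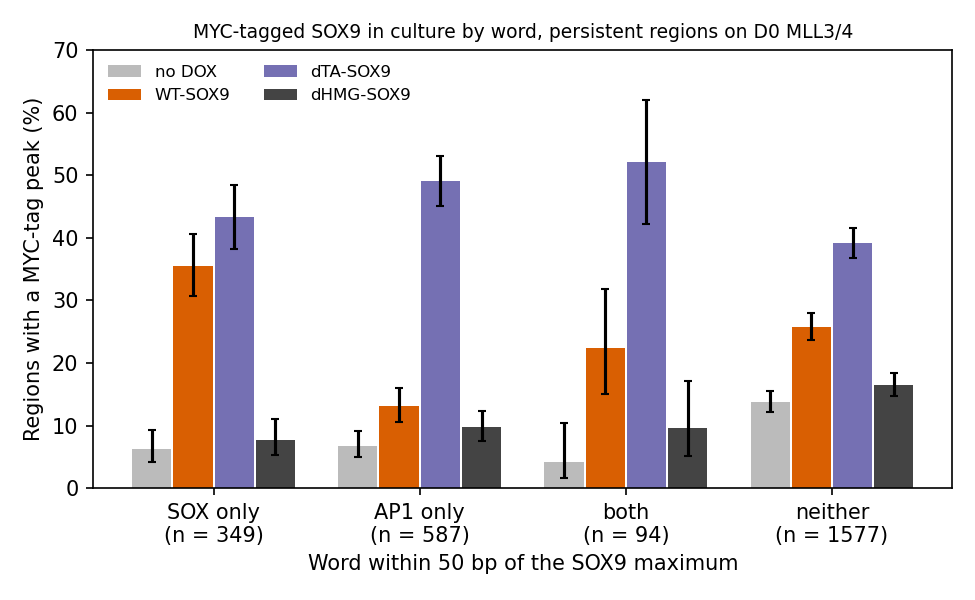
Share of the 2607 persistent regions on prior MLL3/4 with a MYC-tag peak in culture (y axis, %), by the word found within 50 bp of the SOX9 maximum (x axis, n regions in each class), with 95% Wilson intervals as bars. WT-SOX9 (orange) was on 35.5% of SOX-only and 13.1% of AP1-only regions, and dTA-SOX9 (purple) on 43.3% and 49.1%.

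As to position in the genome, 610 regions (23.4%, 21.8 to 25.1; 21.2% of all merged regions) had their maximum within 1 kb of an annotated transcript start. Another 1017 (39.0%) lay in introns, 921 (35.3%) between genes and 59 (2.26%) in exons. The persistent regions without D0 MLL3/4 were promoters in 8.47%, 14.9 points less (12.9 to 17.0), and the regions not persistent in 35.5%, where the regions had 12.1 points less (-12.1, -14.3 to -9.86). In the 2 upper quartiles of the W1 SOX9 maximum the latter difference had intervals that included 0. Of the 369 regions on prior MLL3/4 above 3600 RPKM in each week, 11.7% (8.77 to 15.3) were promoters. MLL3/4 was present at W1 in 91.8% (89.4 to 93.7) of promoter and 97.7% (97.0 to 98.3) of distal regions. The median distance to the 5′ end of the nearest gene was 31246 bp, and 446 regions (17.1%) had another of the set within 10 kb.

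With 50 kb to either side, 4037 of 21911 protein-coding genes (18.4%) had at least 1 of these regions, 258 had 3 or more and 18 had 5 or more. The share depended on gene length, from 15.6% of genes under 10 kb to 24.5% of genes of 100 kb or more. The most regions lay at Gm20388 (9), a gene model of 4434882 bp that spans many other genes, followed by Dlgap1 (7), Fgfr2 (7), Rad51b (7) and Cdk19 (6). Fgfr2, a receptor for fibroblast growth factors, is likewise annotated over 2960900 bp, with 16 regions not persistent in it or within 50 kb. Cdk19, a Mediator kinase gene, had 6 regions, 2 persistent ones without D0 MLL3/4 and 0 not persistent, while Rad51b, a recombination gene, had 7, 5 and 11.

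Genes of chosen pathways were counted beside the 18.4% of all protein-coding genes, beside the larger set of regions not persistent, which lay near 28.6% of all, and beside the persistent regions without D0 MLL3/4, near 10.6% of all. A count at a gene is of regions in it or within 50 kb, so that neighbouring genes can share the same region. In a list of 19 EpdSC fate and structure genes 11 (57.9%) had at least 1 region, with a median of 1 against 0 over all genes, while 15 had a region not persistent and 9 a persistent one without D0 MLL3/4. Trp63, the master regulator of stratified epithelium, had 4, the desmosomal gene Dsp 3, and the transcription factor gene Klf5 and the p53/p63 target gene Perp 2 each. Of 17 hemidesmosome and basement membrane genes 8 (47.1%) had one, among them the integrin genes Itga6 (4) and Itga3 (2), the plakin Dst (2) and the laminin chain Lama3 (2), while 14 and 10 had one of the other sets in that order. Of 13 AP1 and related bZIP genes 7 (53.8%) had one, with 4 at Bach1, 4 at Bach2, 3 at Fosl2 and 1 at Fos, while 11 and 2 had one of the other sets in that order. Of 14 EGFR pathway genes 9 (64.3%) had one, with 3 at the receptor antagonist gene Lrig1, 3 at the ligand gene Tgfa, 2 at the ligand gene Epgn and 2 at the receptor gene Erbb3, while 6 and 4 had one of the other sets. Of these 14 genes, 7 were the nearest gene of a region, beside 8.56% of all protein-coding genes.

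Of 20 genes of HFSCs and the outer root sheath 9 (45.0%) had a region, and 11 had one of each other set, with 3 at Nfib and 2 each at Krt17, Nfatc1 and Tcf7l2, all known from follicle stem cells or the outer root sheath. Of 19 actin cytoskeleton and focal adhesion genes 10 (52.6%) had one, with 3 at Actn4 and 2 each at Lpp, Myh9 and Tpm1, and of 14 YAP and TEAD pathway genes 7 (50.0%), with 3 at Tead1, 2 at the TAZ gene Wwtr1, 2 at Vgll4 and 1 at Amotl1. The further lists were WNT (8 of 21, 38.1%, with 3 at Lgr4 and 2 at Fzd7), Notch (4 of 12, 33.3%, with 2 at Maml2), MLL3/4 and SWI/SNF subunits (5 of 15, 33.3%, with 1 within 50 kb of Kmt2d but none within 10 kb), TGF-beta and BMP (5 of 17, 29.4%, with 2 at Tgfbr1), Hedgehog (3 of 11, 27.3%, with 3 at Sufu) and RUNX (1 of 4, at Runx1). Of the Hedgehog genes 4 and of the RUNX genes 4 had a persistent region without D0 MLL3/4. Genes of 100 kb or more had a region on prior MLL3/4 in 24.5%, and no test was made of the lists. Within 10 kb the counts were 8 EpdSC, 7 HFSC, 8 actin, 6 EGFR, 5 TGF-beta and BMP and 4 each of the hemidesmosome, AP1, WNT, YAP and TEAD, and MLL3/4 and SWI/SNF genes, with 2 Notch, 2 Hedgehog and 1 RUNX gene, beside 8.61% of all genes. Among the genes named above, Perp, Fos, Tgfa, Erbb3, Tpm1 and Amotl1 had no region within 10 kb. Krt17 and Erbb3 were not the nearest gene of any region. The median gene length in these lists ran from 11141 bp (AP1) to 141012 bp (RUNX), and a region near a gene is a position, not a measure of its expression, which was not analysed here.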

How the data were processed

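CNR was analysed in 16 pooled peak lists and 2 lists of replicate 1 alone. The other 9 of the 41 samples (JUN, ARID1a and BRG1 CNR) had no list and were not analysed here. Per the labels and methods, the authors aligned Skewer-trimmed reads to mm10 (Bowtie2 2.2.9), removed duplicates (Picard), kept fragments of at most 120 bp and combined replicates (SAMtools 1.3.1), made coverage tracks (deepTools 3.1.2) and called peaks with SEACR in stringent mode at 0.01. In the SOX9, MYC-tag and replicate 1 lists the deposited signal, used for the maximum, is in RPKM, scaled by the authors. In the 7 pooled MLL3/4 lists the deposited signal is whole-number coverage without scaling, and only ranks within a list were used. The deposited total signal of a peak is a SEACR score, the sum of signal over its bases, and gave the ranks. The titles of the samples behind the MLL3/4 list of WT-SOX9 number them as different replicates, but their descriptions call both replicate 2, so its make-up is unsure.

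Computation used pandas 2.3.3, numpy 2.4.6 and scipy 1.17.1 under Python 3.11.15, with matplotlib 3.10.9 for plots. The sequence (GRCm38.p6) and genes (GENCODE vM21) are of the authors' build, and 0 peaks ended beyond a chromosome. Overlap meant at least 1 bp. The implied fragments of a list in RPKM follow from the smallest step of its maxima. Words were read on both strands within 50 bp of the maximum of the strongest SOX9 peak of a region. Promoters reached 1 kb to either side of any transcript start, and the class exon, intron or intergenic uses all annotated genes. Intervals for dTA-SOX9 minus WT-SOX9 are normal intervals over the same regions. Named were the 6 regions with the highest rank in their weakest week, 3 with the most D0 MLL3/4, 3 of those lost at W1 and W2, 3 on WT-SOX9 and dTA-SOX9 alone, the 5 genes with most regions, and up to 4 genes of each list, ties by alphabet, in all without chromosome 18 for regions. The alternatives are given at the end. The scripts were tested on simulated data. The regions and gene lists were chosen with earlier results of these data known.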

Additional observations from a re-analysis of the deposited data

How the results depend on the processing

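Of the 88 differences from the persistent regions without D0 MLL3/4 recomputed under the alternatives (overlap of at least 50%, SOX9 above 3600 RPKM, merging within 500 bp, the upper 50% of the D0 MLL3/4 list, autosomes only, 200 bp around the maximum, lists of equal length, of which the equal MYC-tag lists were added after seeing the data, replicate 1 alone, other words, windows and promoters), 88 kept their direction and an interval without 0. Of the 124 differences from the regions not persistent, 104 did so, 16 kept their direction with an interval that included 0 and 4 changed direction. With SOX9 above 3600 RPKM the number of regions fell from 2607 to 369, and differences from the regions not persistent became 0.911 and 0.107 points for MLL3/4 at W1 and W2, 1.42 points for cultured MLL3/4 in the absence of DOX, 4.81 for it in dTA-SOX9 cells and 2.26 in dHMG-SOX9 cells, and -4.30 and -3.87 points for MYC-tag peaks without DOX and with dHMG-SOX9, both reversed. dTA-SOX9 minus WT-SOX9 over the regions then became -3.25 points. In quartiles of the W1 SOX9 maximum, from the lowest, the difference was 2.57, 0.308 and -0.0238 points for MLL3/4 at W1 in quartiles 2, 3 and 4, 2.07, 1.02, 0.505 and 0.0942 for W2, 2.77, 3.03, 1.49 and 3.34 for the SOX word, and -3.24 and 3.40 for promoters in quartiles 3 and 4. The cause was not tested. Genes near a region fell from 18.4% to 8.61% with 10 kb to each side and to 8.56% with the nearest gene only. Of 90 shares of the regions, 40 moved beyond their interval, among them MYC-tag peaks without DOX, 21.7% in the replicate 1 list, which differs both in replicate and in its lack of an 1800 RPKM limit, and 11.8% with that limit (added after seeing the data, as was the position from the top of the MLL3/4 lists).

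No paired analysis was possible because replicates were pooled into 1 list per group. The depth of the MLL3/4 lists is unknown, so that a missing peak is a peak not listed, and 2 samples per pool leave the spread between mice and cultures unmeasured.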
